A study of Mus musculus with 6 samples.

Results

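The immediate early genes are a set of 32 genes taken by symbol from the deposited count table, which lists 35673 genes in all, and all 32 were found. They were read in 6 RNA-seq libraries of mouse cornea, 3 titled Control and 3 titled Cationorm, from male C57BL/6J mice of 6 to 8 weeks. Cationorm is an eye drop in the form of a nanoemulsion with positively charged oil droplets. Per the labels' protocols, dry eye was modelled by giving 0.1% benzalkonium chloride, a preservative of eye drops that harms the ocular surface, together with contact lenses worn 6 h a day. Treatment with 5 µL drops followed for 14 days. The condition tag (CLDE, contact lens-related dry eye) and the treatment tag (wild-type) do not differ among the 6 libraries. The labels therefore do not settle whether the Control mice were left untreated or belonged to the model. They also do not say whether each library came from 1 animal, 1 eye or a pool, so p-values rest on the variation among these samples, part of which may be technical.

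Immediate early genes are switched on within minutes of a stimulus, without new protein synthesis, because the factors that drive them are already in the cell. Growth factor, stress and mechanical signals reach them through MAP kinases, serum response factor with its Elk partners, and CREB. Their products are mostly transcription factors and feedback inhibitors, and their mRNAs are short-lived. In corneal epithelium they are known to respond to wounding, and in tissue samples in general they can respond to dissection and handling.

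Levels are given in CPM, the usual unit of counts scaled to library size, here with TMM factors. Libraries held 32486043 to 39193311 counts, and the members together held 0.253% to 0.300% of them. The corneal epithelium markers summed to between 58834 and 65763 CPM, and the keratin Krt12 was at 8350 to 9075 CPM in every library, as the tissue label says. Transcripts of neighbouring eye tissues were present too and differed between libraries. In bulk tissue, fewer cells of a type and less RNA per cell cannot be told apart. Of the 32 members, 31 passed the filter on low counts. Fosl1, which encodes the Fos-family protein Fra-1, did not, with 7, 13 and 8 counts in the Control replicates and 25, 4 and 10 counts in the Cationorm replicates. Another 3 tested members, Egr2, Egr3 and Dusp2, stayed under 1 CPM in every library.

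Promoter sequence was available for 26 members, from RefSeq on GRCm38.p6, which is an older build than the GRCm39 named in the submitters' notes. Each window was the 250 bases upstream of the annotated start, searched on both strands for 5 motifs. These were the CArG box (the site of serum response factor), the cyclic AMP response element TGACGTCA, its core TGACG, the AP-1 site TGANTCA and the Egr site GCGNGGGCG. Every TGACGTCA also contains the core. The 4 windows below belong to members whose values are described in detail, and capitals mark the motif matches.
Fos, chr12:85473640-85473889, plus strand: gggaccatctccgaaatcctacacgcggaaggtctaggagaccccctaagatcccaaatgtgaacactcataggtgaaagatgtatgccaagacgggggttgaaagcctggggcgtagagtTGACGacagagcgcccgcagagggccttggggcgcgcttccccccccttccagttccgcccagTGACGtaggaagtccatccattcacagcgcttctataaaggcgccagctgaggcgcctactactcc
Fosb, chr7:19310046-19310295, minus strand: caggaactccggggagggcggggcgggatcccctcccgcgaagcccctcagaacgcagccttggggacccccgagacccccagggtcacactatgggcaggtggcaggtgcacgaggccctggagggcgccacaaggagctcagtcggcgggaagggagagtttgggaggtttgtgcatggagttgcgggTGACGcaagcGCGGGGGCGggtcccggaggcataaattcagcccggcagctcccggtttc
Zfp36, chr7:28379229-28379478, minus strand: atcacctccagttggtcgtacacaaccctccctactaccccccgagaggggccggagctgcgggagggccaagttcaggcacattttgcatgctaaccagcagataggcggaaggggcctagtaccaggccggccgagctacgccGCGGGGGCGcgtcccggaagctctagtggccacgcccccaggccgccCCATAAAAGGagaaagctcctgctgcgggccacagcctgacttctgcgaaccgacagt
Nr4a1, chr15:101266596-101266845, plus strand: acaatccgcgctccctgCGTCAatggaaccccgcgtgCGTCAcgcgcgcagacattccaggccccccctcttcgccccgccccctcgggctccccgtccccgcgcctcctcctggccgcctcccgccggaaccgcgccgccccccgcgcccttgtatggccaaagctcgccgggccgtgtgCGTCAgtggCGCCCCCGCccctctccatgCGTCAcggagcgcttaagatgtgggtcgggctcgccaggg
The core TGACG was found in at least 1 window of 15 of the 26 members, beside 17.8% of all 32851 promoter windows in the table. The Egr site was found in 10 members, beside 4.70% of all windows. The CArG box was found in 3 members (Egr2, Dusp5 and Zfp36), beside 1.47% of all windows, and TGACGTCA in 3 (Dusp1, Btg2 and Maff), beside 1.55%. The AP-1 site was found in 1 member, Zfp36l1, beside 6.75% of all windows. Egr2 and Maff have several windows each and so more chances of a match. All 3 NR4A genes held 4 cores each. These matches are descriptions of the letters in the window, and sites outside the 250 bases were not searched. The entries of Fosl1, Egr1, Egr3, Ier2, Klf10 and Myc were missing.

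The comparison of the groups addressed how corneal expression of these genes differed between the Cationorm and Control libraries. Since the labels do not settle whether the Control mice belonged to the model, it may not isolate the drop treatment. No member differed between Cationorm and Control past the test. The highest library was at least 1.5-fold the lowest for 13 of the 31 tested members and at least 2-fold for 6. Of those 6, Egr2 and Dusp2 rest on 10 to 26 and 14 to 30 counts per library. The same shares over all tested genes were not computed. The median within-group SD on the log2 scale was 0.21 for the members, beside 0.18 over all tested genes. The fitted log2 fold change was above 0 for 20 of the 31 tested members and below 0 for 11, with a median of 0.15. Over all 18804 tested genes, 51.2% were above 0 and the median was 0.01. When the mean level of the iris and pigment markers entered the fit as a covariate, the median was -0.02, and with the retina markers it was -0.06. The iris and pigment level did not overlap between the groups, so group and tissue makeup cannot be told apart by that fit.

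The quasi-likelihood test of edgeR with Benjamini-Hochberg adjustment called 0 of the 31 members at an adjusted p of 0.05, as it called 0% of all genes. The adjusted p ran from 0.550 to 0.987. DESeq2 and limma-voom also called 0 members, with smallest adjusted p of 0.167 (Fosb) and 0.453 (Egr2). At an unadjusted p under 0.05 in edgeR there were 3 members, Fosb, Egr2 and Zfp36, all higher in Cationorm. This is beside 5.16% of all genes higher, 3.57% lower and 8.73% in either direction. The set depended on the method, since in DESeq2 Egr2 had an unadjusted p of 0.151 and Fos one of 0.0253. The groups did not overlap in 4 members, Zfp36, Nr4a2, Jund and Egr2, again all higher in Cationorm, beside 8.73% of all genes higher, 6.09% lower and 14.8% in either direction. With 31 genes, counts of 3 and 4 are near the background.

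**Figure D1:**
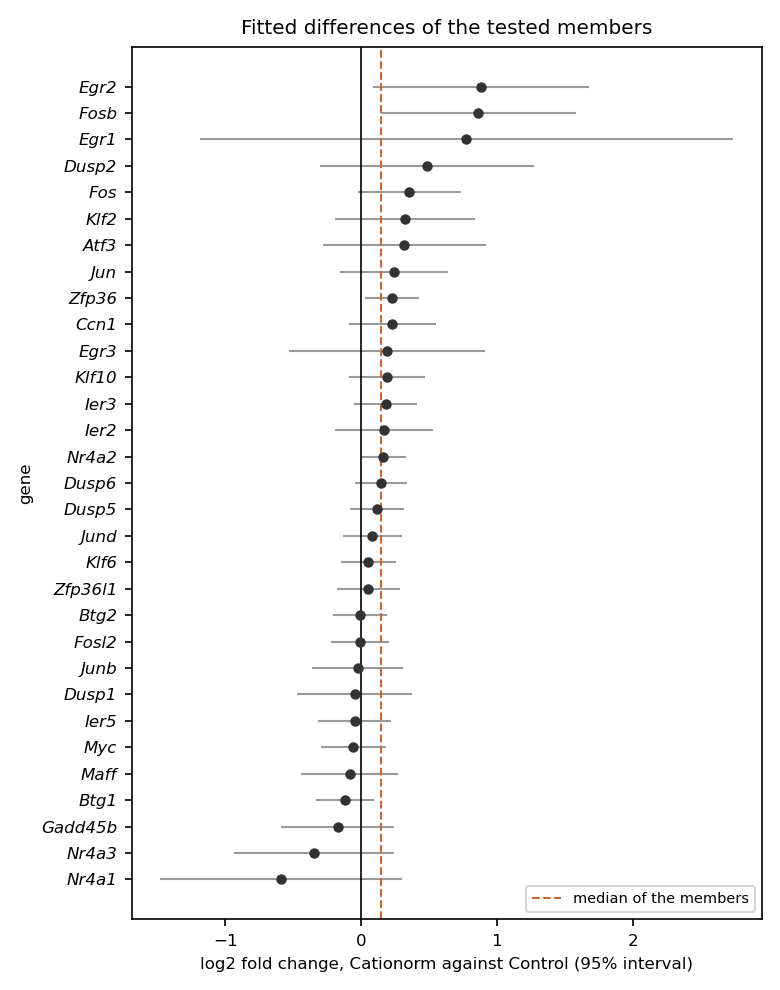
Fitted log2 fold change of Cationorm against Control (x axis) for the 31 tested members (y axis), as points with 95% intervals. The dashed line is the members' median of 0.15. The interval of Egr1 is the widest, from -1.19 to 2.74, and the points run from -0.59 (Nr4a1) to 0.88 (Egr2).

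The members also differed among libraries of the same group. Cationorm 2 was the highest library for 15 of the 31 members (48.4%), beside 18.0% of all tested genes. Control 1 was the lowest library for 16 (51.6%), beside 17.9% of all genes. The median deviation of a member from its own mean, on the log2 scale, was -0.17 in Control 1, -0.05 in Control 2 and 0.05 in Control 3. It was 0.10 in Cationorm 1, 0.16 in Cationorm 2 and -0.07 in Cationorm 3. Cationorm 3 thus sat with the Control libraries, and Control 3 lay between the groups. The same medians over all tested genes lay between -0.01 and 0.02. Control 1 also held the least of the lens markers (91.7 CPM summed over 12 genes, against 1854 to 6692 CPM in the others) and of the leukocyte markers (101 CPM summed over 12 genes, against 127 to 158 CPM). Skeletal muscle markers were highest in Cationorm 2 (13 of 14 genes, all but Tnnc2, which had at most 2 counts in any library). They summed to 827, 158 and 1500.2 CPM in Control replicates 1 to 3, against 122, 2311 and 984 CPM in Cationorm replicates 1 to 3. With their level as a covariate in the group comparison, the median log2 fold change of the members was 0.15. That fit concerns the difference between groups, not the order of libraries within a group. Retina markers ran nearly in the reverse order of the members' medians, highest in Control 1 and lowest in Cationorm 2. They summed to 7965, 6940 and 5399 CPM in Control replicates 1 to 3, against 2670, 2084 and 6620 CPM in Cationorm replicates 1 to 3. With the retina level as a covariate, the members' median was -0.06. Blood markers were highest in Control 1 (139 CPM summed), then Cationorm 2 (110 CPM). The part of lens, leukocyte, skeletal muscle, retina and blood transcripts in the members' levels was not tested.

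**Figure D2:**
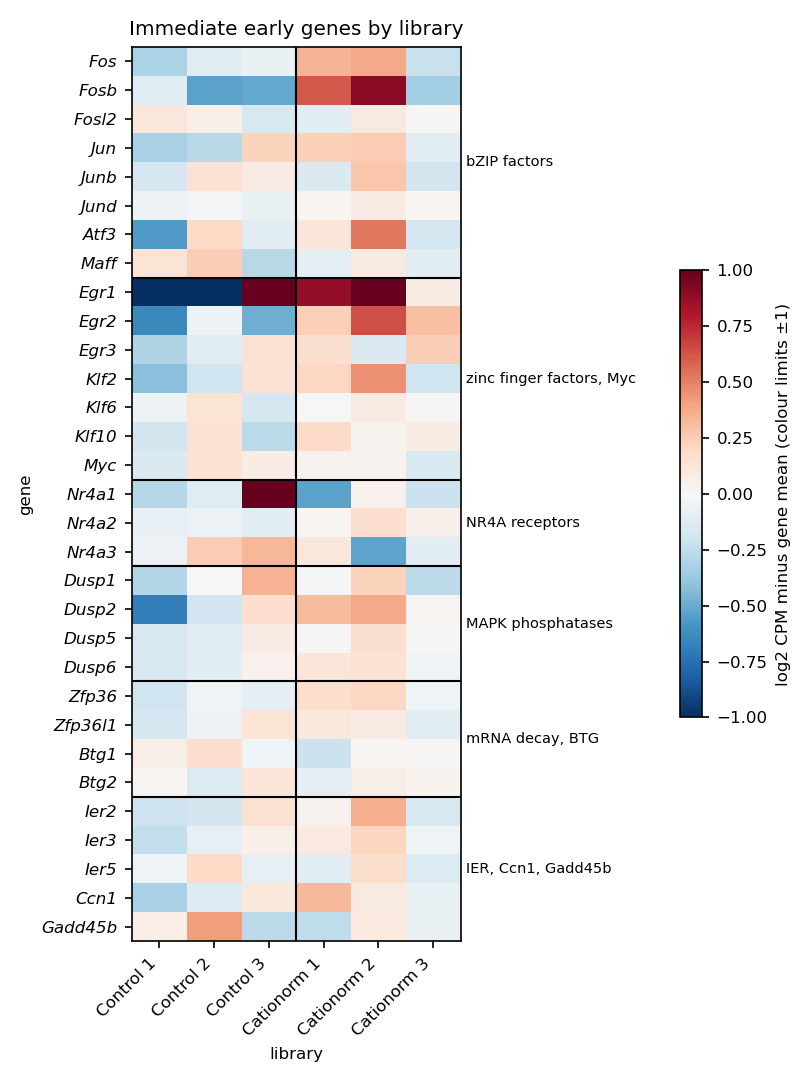
Log2 CPM minus the gene's mean over the 6 libraries (colour, limits of ±1) for the 31 tested members (rows, ordered by role) in each library (columns). Control 1 is the lowest library in 16 rows and Cationorm 2 the highest in 15, and the deepest colours are those of Egr1, Fosb and Nr4a1.

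Per kilobase of annotated exon, the members spanned a wide range of levels. Junb was the highest, at a mean of 131 CPM per kb, followed by Ier3 (103), Zfp36l1 (90.3), Ccn1 (56.7) and Fosl2 (56.5). Egr3 (0.116), Egr2 (0.131) and Fosl1 (0.159) were the lowest. Among the Fos-family genes the order per kb was Fosl2, Fos (32.6), Fosb (1.97) and Fosl1. Among the Jun family it was Junb, Jun (25.8) and Jund (7.73). Reads of 8 members cannot be told apart from those of a gene overlapping on the opposite strand, since the strand setting of the counts is not given. These are Fosl1, Jun, Junb, Jund, Dusp1, Dusp5, Zfp36 and Zfp36l1, and their levels are uncertain to that extent.

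Egr1, a zinc finger factor that is among the first genes induced by growth factors and injury, had the widest spread of all members. It was at 8.13, 16.1 and 96.6 CPM in Control replicates 1 to 3, against 71.9, 93.9 and 41.0 CPM in Cationorm replicates 1 to 3. Control 1 and Control 2 were low, Control 3 was the highest library of all, and the groups overlapped. These values rest on 325 to 3539 counts per library, and the highest was 11.9-fold the lowest. The log2 fold change was 0.78 ± 0.84 (SE, adjusted p = 0.742 in edgeR), and without Control 3 it was 2.51 (adjusted p = 0.130). Without Control 1 instead it was 0.29 (adjusted p = 0.942 in edgeR). The size also depended on the method with all 6 libraries kept. It was 0.77 in DESeq2 (adjusted p = 0.869) and 1.53 in limma-voom (adjusted p = 0.484). In edgeR with replicate number as a block it was 1.63 (adjusted p = 0.702).

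Markers of some other eye tissues were low in the 2 libraries with the least Egr1, Control 1 and Control 2. The smooth muscle list (10 genes, none at 0 in any library, 9 of 9 tested above 0 in log2 fold change) summed to 209, 173 and 339 CPM in Control replicates 1 to 3, against 460, 452 and 380.2 CPM in Cationorm replicates 1 to 3. The pigment and iris list (13 genes, none at 0, 12 above 0 in log2 fold change) summed to 1352, 1346 and 2099 CPM in Control and to 2623, 2280 and 2192 CPM in Cationorm. The vessel list (13 genes, none at 0, 11 above 0 in log2 fold change) summed to 133, 115 and 191 CPM in Control and to 175, 184 and 170 CPM in Cationorm, with Control 3 the highest as for Egr1. Control 3, the highest library for Egr1, was below every Cationorm library in the smooth muscle and the iris and pigment sums. The retina list (15 genes, none at 0, all 15 below 0 in log2 fold change) ran the other way, at 7965, 6940 and 5399 CPM in Control and 2670, 2084 and 6620 CPM in Cationorm. As covariates in the fit, the iris and pigment level gave Egr1 a log2 fold change of -0.98 and the retina level one of -0.21. Which cells carried the Egr1 transcripts, and the part of tissue makeup in its spread, were not tested.

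**Figure D3:**
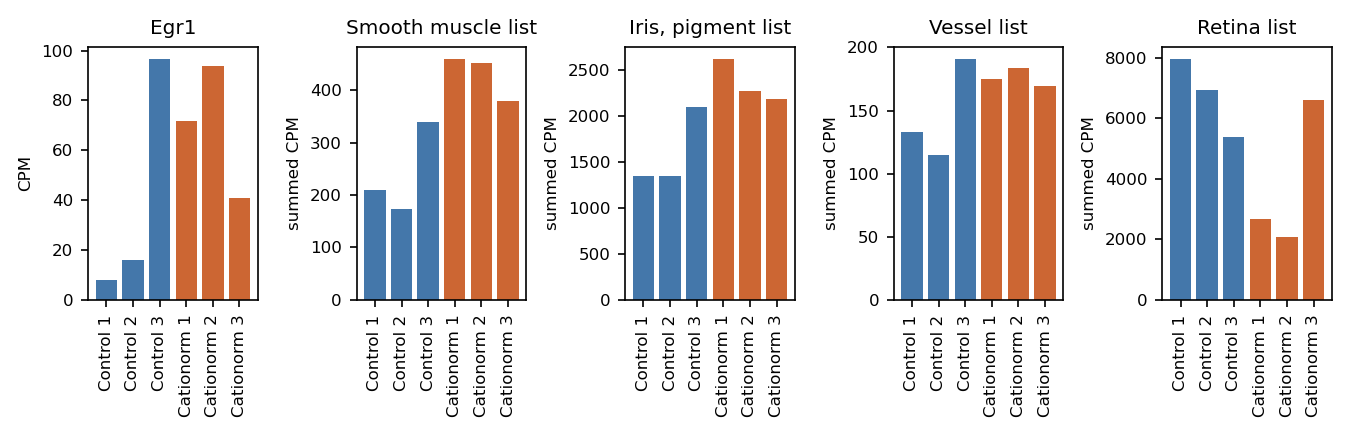
CPM of Egr1 and summed CPM of the smooth muscle, iris and pigment, vessel and retina marker lists (y axes, each from 0) in the 6 libraries (x axes), Control in blue and Cationorm in orange. Control 1 and Control 2 hold the shortest bars of the first 4 panels.

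The other Egr and Krüppel-like factors spread less. Egr2, a relative of Egr1, was at 0.250, 0.404 and 0.285 CPM in Control replicates 1 to 3, against 0.508, 0.690 and 0.532 CPM in Cationorm replicates 1 to 3. Its groups did not overlap, but these values rest on 10 to 26 counts per library. Its log2 fold change was 0.88 ± 0.34 (SE, unadjusted p = 0.0345, adjusted p = 0.550 in edgeR). Egr3 was at 0.400 to 0.612 CPM with overlapping groups.

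Klf2, a factor known from endothelium and T cells, was at 6.43, 7.50 and 9.54 CPM in Control replicates 1 to 3, against 9.96, 11.9 and 7.50 CPM in Cationorm replicates 1 to 3, with the libraries in the same order as for Fos. Klf6, a broadly expressed injury-response factor, was at 138, 157 and 127 CPM in Control and 143, 151 and 144 CPM in Cationorm. Klf10, a TGF-β-inducible factor, was at 26.4, 33.1 and 24.8 CPM in Control and 34.2, 30.7 and 31.4 CPM in Cationorm. Klf6 and Klf10 were lowest in Control 3, the library in which Egr1 was highest. Myc, the growth regulator, stayed within 27.4 to 33.7 CPM in all libraries, at 27.6, 33.7 and 32.1 CPM in Control and 31.1, 31.3 and 27.4 CPM in Cationorm. Its 95% interval for the log2 fold change was -0.29 to 0.18.

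The AP-1 genes encode bZIP proteins that pair as Fos with Jun and bind the same DNA element. Fos was at 60.6, 69.3 and 72.2 CPM in Control replicates 1 to 3, against 95.6, 98.2 and 64.7 CPM in Cationorm replicates 1 to 3. Cationorm 1 and 2 were above every Control library, while Cationorm 3 was within the Control range. For Fos the log2 fold change was 0.36 ± 0.16 (SE, adjusted p = 0.550 in edgeR).

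Fosb, whose protein pairs with Jun as Fos does, had the same split. It was at 10.4, 7.82 and 7.95 CPM in Control replicates 1 to 3, against 17.5, 21.3 and 8.99 CPM in Cationorm replicates 1 to 3. Cationorm 3 again lay within the Control range. Its fitted log2 fold change was 0.86 ± 0.31 (SE, unadjusted p = 0.0248, adjusted p = 0.550 in edgeR). Without Cationorm 3 it was 1.15 with an adjusted p of 0.0345, and Fosb was then the 1 member called, beside 1.83% of all genes in either direction and 0.0782% higher. Without Cationorm 3, Fos had a log2 fold change of 0.53 (adjusted p = 0.0527). Without Cationorm 2 instead, the log2 fold change was 0.57 for Fosb and 0.23 for Fos (adjusted p = 0.823 for both in edgeR). With the retina level as a covariate it was 0.16 for Fosb and -0.06 for Fos.

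Jun was at 64.8, 66.7 and 94.6 CPM in Control replicates 1 to 3, against 95.7, 96.7 and 74.8 CPM in Cationorm replicates 1 to 3. Control 3 was level with Cationorm 1 and 2, so the groups overlapped. Junb, a Jun relative with known roles in epidermis, was at 266, 330.0 and 317 CPM in Control and 271, 362 and 263 CPM in Cationorm. Jund, the more constantly expressed family member, was at 12.4, 12.8 and 12.3 CPM in Control and 13.0, 13.7 and 13.1 CPM in Cationorm. The groups did not overlap, within this narrow range, with a log2 fold change of 0.08 ± 0.09 (SE, adjusted p = 0.751 in edgeR).

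Fosl2, which encodes Fra-2, was at 591, 568 and 488 CPM in Control replicates 1 to 3, against 505, 581 and 551 CPM in Cationorm replicates 1 to 3, so the most abundant Fos-family gene differed little between libraries. Atf3, a stress-induced bZIP repressor, was at 4.63, 7.91 and 6.35 CPM in Control and 7.49, 9.95 and 6.09 CPM in Cationorm. Maff, a small Maf protein without an activation domain, was at 16.5, 17.9 and 12.4 CPM in Control and 14.1, 16.0 and 14.0 CPM in Cationorm. Atf3 was lowest in Control 1 and highest in Cationorm 2, and Maff was instead lowest in Control 3. The groups overlapped in all 3 genes.

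**Figure D4:**
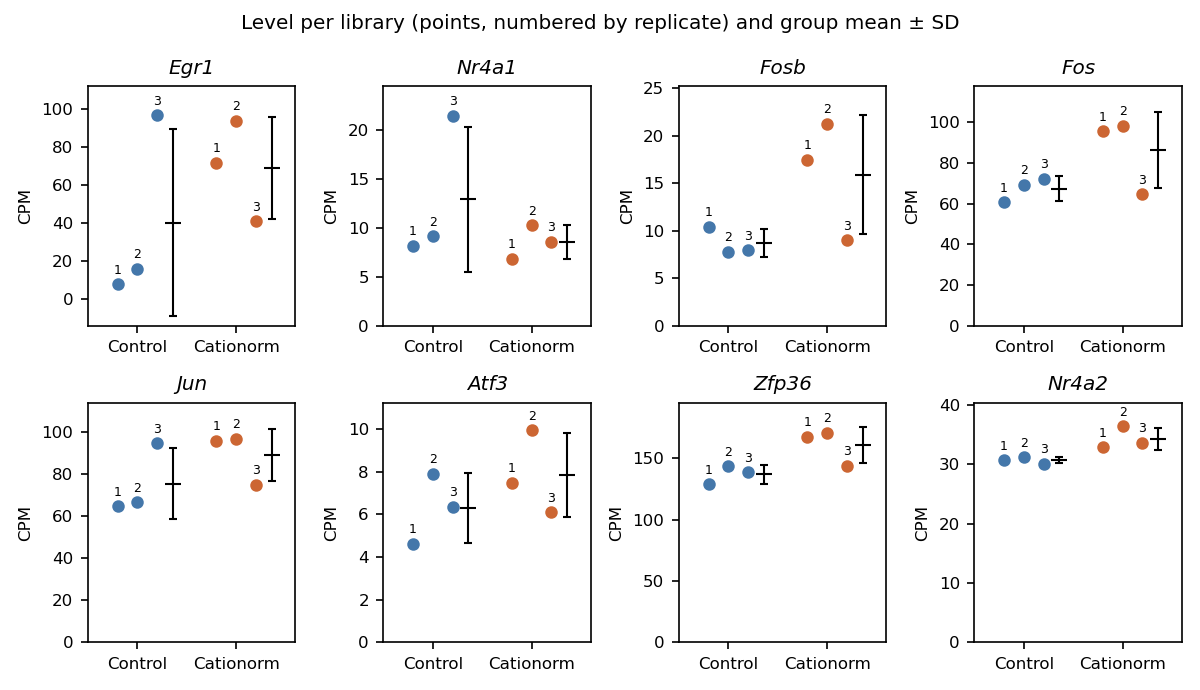
CPM (y axes, linear) of 8 members in each Control and Cationorm library (points, numbered by replicate), with the group mean ± SD (bars, n = 3). Cationorm 3 lies within or near the Control range for Fos, Fosb, Atf3 and Zfp36, and Control 3 stands above Control 1 and 2 for Egr1, Nr4a1 and Jun.

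The NR4A genes encode orphan nuclear receptors, which are induced by many of the same signals. Nr4a1 was at 8.15, 9.12 and 21.4 CPM in Control replicates 1 to 3, against 6.85, 10.2 and 8.56 CPM in Cationorm replicates 1 to 3. Control 3 stood alone above the other 5 libraries, and the groups overlapped. The log2 fold change of Nr4a1 was -0.59 ± 0.38 (SE, adjusted p = 0.594 in edgeR), and without Control 3 it was -0.01. Nr4a2 was at 30.7, 31.1 and 30.1 CPM in Control and at 32.9, 36.4 and 33.6 CPM in Cationorm. Its groups did not overlap, and the log2 fold change was 0.16 ± 0.07 (SE, unadjusted p = 0.0527, adjusted p = 0.550 in edgeR). Nr4a3 was at 1.85, 2.31 and 2.45 CPM in Control and 2.09, 1.33 and 1.78 CPM in Cationorm, lowest in Cationorm 2, the library in which 15 of the 31 members were highest. The 3 receptors thus had 3 different orders of libraries. Nr4a2 ran only from 30.1 to 36.4 CPM, and Nr4a3 rests on 50 to 86 counts per library. How the 4 TGACG cores in each window relate to these levels was not tested.

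The dual-specificity phosphatases switch off MAP kinases and are themselves induced by them. Dusp1, which acts on p38 and JNK, was at 98.7, 120.3 and 153 CPM in Control replicates 1 to 3, against 119, 141 and 101 CPM in Cationorm replicates 1 to 3, with Control 3 the highest library. Dusp6, a cytoplasmic phosphatase of ERK, was at 58.2, 60.3 and 67.0 CPM in Control and 70.5, 71.6 and 63.0 CPM in Cationorm. Dusp5, a nuclear ERK phosphatase, ran from 96.2 to 120.0 CPM. Dusp2 was at 0.350, 0.519 and 0.684 CPM in Control and 0.762, 0.796 and 0.612 CPM in Cationorm, from 14 to 30 counts per library, with a log2 fold change of 0.48 ± 0.34 (SE, adjusted p = 0.612 in edgeR). Control 1 was the lowest library for all 4 phosphatases, and the groups overlapped in all 4. Their adjusted p ran from 0.567 for Dusp6 to 0.938 for Dusp1 (edgeR).

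Zfp36 encodes tristetraprolin, which binds AU-rich elements and speeds the decay of mRNAs such as those of cytokines and of immediate early genes themselves. It was at 129, 144 and 139 CPM in Control replicates 1 to 3, against 168, 171 and 144 CPM in Cationorm replicates 1 to 3. The groups did not overlap, with Cationorm 3 just above Control 2 (144.04 against 143.8 CPM). For Zfp36 the log2 fold change was 0.23 ± 0.08 (SE, unadjusted p = 0.0292, adjusted p = 0.550 in edgeR). Its relative Zfp36l1 was at 239 to 296 CPM, highest in Control 3. The antiproliferative gene Btg2 was at 58.9, 52.8 and 63.0 CPM in Control and 54.3, 60.4 and 59.4 CPM in Cationorm, with a 95% interval of -0.20 to 0.19 for the log2 fold change. Btg1 was at 61.2 to 80.1 CPM.

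Ier2, a nuclear immediate early protein, was at 62.3, 63.1 and 79.8 CPM in Control replicates 1 to 3, against 73.4, 92.6 and 64.5 CPM in Cationorm replicates 1 to 3. Ier3, a regulator of apoptosis and ERK signalling, was at 97.7, 109 and 119.6 CPM in Control and 124, 134 and 112 CPM in Cationorm. Ccn1, a secreted matricellular protein, was at 90.6, 103 and 122 CPM in Control and 142, 120.9 and 108 CPM in Cationorm. Control 1 was the lowest library for all 3, and their groups overlapped. Ier5 ran from 162 to 205 CPM. Gadd45b, a stress-induced MAP kinase regulator, ran from 23.4 to 37.4 CPM. Both were highest in Control 2, as were Btg1, Klf6, Myc and Maff.

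The spread between libraries was then set against that of other genes of the same abundance, using edgeR's biological coefficient of variation, the spread within groups beyond counting noise. Of the 31 members, 9 lay above the trend (29.0%), beside 20.6% of all tested genes, and the median ratio to the trend was 0.82, beside 0.77. Most members thus lay at or below the trend. Egr1 had a coefficient of 0.679 where the trend was 0.142, a ratio of 4.80, and 0.250% of all tested genes had a higher ratio. Nr4a1 followed with a ratio of 1.56 and Fosb with 1.35. Dusp1, Jun, Fos, Gadd45b, Ier2 and Atf3 had ratios between 1.01 and 1.19.

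**Figure D5:**
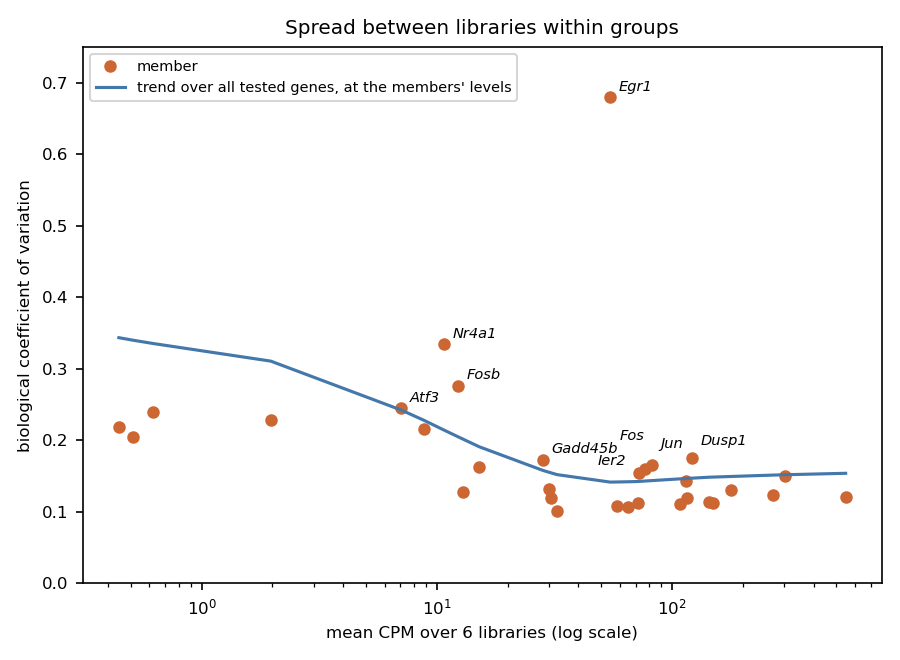
Biological coefficient of variation (y axis, from 0) against mean CPM (x axis, log scale) for the 31 tested members (points), with the trend over all tested genes at the members' levels (line). The 9 members above the trend are named, and Egr1 stands at 0.679.

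Other genes of the pathway were read from lists beside the members. Of 21 upstream kinases and factors, 0 passed the test in edgeR. An unadjusted p under 0.05 was found for 0, beside 8.73% of all genes. Their median log2 fold change was -0.01, and their median deviation lay between -0.03 and 0.02 in all 6 libraries. The kinase genes Mapk8 (JNK1, log2 fold change -0.18 ± 0.08 SE) and Mapk3 (ERK1, 0.04 ± 0.06) had the smallest p and the highest level per kb of this list. Of 29 other early response genes, 12 were above 0 and 17 below, and 0 passed. Among these 29, an unadjusted p under 0.05 in edgeR was found for 2, beside 8.73% of all genes in either direction. The matricellular gene Ccn2 was at 118, 123 and 64.3 CPM in Control replicates 1 to 3, against 67.0, 58.9 and 67.2 CPM in Cationorm replicates 1 to 3. Control 3 was thus with the Cationorm libraries, as for Egr1, but on the low side. Its log2 fold change was -0.66 (unadjusted p = 0.0227), and the other gene with an unadjusted p under 0.05, the histone demethylase gene Kdm6b, named after its values were seen, had one of 0.22 (unadjusted p = 0.0443). Klf4, an epithelial factor, was the highest per kb of these genes and ran with a log2 fold change of 0.03 ± 0.07 (SE).

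Of 19 genes of ERK feedback and epidermal growth factor ligands, 10 were above 0 and 0 passed. An unadjusted p under 0.05 in edgeR was found for 3, beside 8.73% of all genes in either direction. The groups did not overlap in 2, beside 14.8% of all genes. With 19 genes, counts of 3 and 2 are near the background. Hbegf, a ligand of the EGF receptor that is known from corneal wound healing, was at 109, 107 and 154 CPM in Control replicates 1 to 3, against 163, 206 and 168 CPM in Cationorm replicates 1 to 3. The groups did not overlap, and the log2 fold change was 0.54 ± 0.16 (SE, unadjusted p = 0.0127, adjusted p = 0.550 in edgeR). The others with an unadjusted p under 0.05, named after their values were seen, were lower in Cationorm. Spred3, an inhibitor of Ras signalling to ERK, had a log2 fold change of -0.73 ± 0.23 (SE, unadjusted p = 0.0161, adjusted p = 0.550 in edgeR), with groups that did not overlap. Dusp8, a phosphatase of JNK and p38, had one of -0.81 ± 0.33 (SE, unadjusted p = 0.0433, adjusted p = 0.550 in edgeR). Dusp7, the highest of this list per kb, had a log2 fold change of 0.02 ± 0.12 (SE). Of 10 other bZIP partners, 6 were above 0 and 0 passed. The small Maf gene Mafk had the smallest p, at 0.29 ± 0.09 (SE, adjusted p = 0.550 in edgeR), and Jdp2 the highest level per kb, at -0.05 ± 0.09.

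Of 15 early NF-κB targets, 6 were above 0 and 0 passed, and the median log2 fold change was -0.01. The chemokine gene Cxcl2 was at 6.00, 9.15 and 0.911 CPM in Control replicates 1 to 3, against 2.03, 2.36 and 2.50 CPM in Cationorm replicates 1 to 3. The inhibitor gene Nfkbia was at 79.2, 92.7 and 47.2 CPM in Control and 56.1, 71.0 and 70.1 CPM in Cationorm. Both were highest in Control 2 and lowest in Control 3, the library with the most Egr1.

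No handling time is given in the labels. Heat shock genes, which also respond to handling, were read beside the members. Of 12 such genes, 5 were above 0 and 7 below, the median log2 fold change was -0.03, and 0 passed. Their median deviation was 0.03, 0.07 and -0.06 in Control 1 to 3 and -0.04, 0.03 and 0.02 in Cationorm 1 to 3. The members' medians ran from -0.17 in Control 1 to 0.16 in Cationorm 2. A median over a list can hide genes that differ in direction. Hsp90ab1, a cytosolic chaperone, had a log2 fold change of 0.16 ± 0.05 (SE, unadjusted p = 0.0184, adjusted p = 0.550 in edgeR), and Hspb1, the most abundant per kb, 0.10 ± 0.08. Dnaja1, a co-chaperone named after its values were seen, went the other way at -0.28 (unadjusted p = 0.0428). Hsp90ab1 and Dnaja1 were the 2 of 12 genes with an unadjusted p under 0.05 in edgeR, beside 8.73% of all genes. With 12 genes, a count of 2 is near the background. The part of handling in the spread of the members was not tested.

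The genes with the most similar order of libraries were found by Pearson's r of log2 CPM with the mean standardised level of the tested members over the 6 libraries. Outside the members these were Prdm1 (r = 0.985), Actb (0.985), Mrpl3 (0.979), Capn2 (0.977) and Dnajc17 (0.975). Of 12057 genes with a mean of at least 5 CPM, 124 (1.03%) reached 0.9, 3 of them members (Atf3, Ier3 and Klf2), which themselves enter the mean. With 6 libraries and 12057 genes such values describe these libraries only.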

How the data were processed

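Per the labels' protocols, TRIzol RNA was selected for mRNA and sequenced from TruSeq libraries. The authors deposited raw read counts by gene symbol, with a column for each library. GRCm39, mm39 and DESeq2 are listed, without a role, in the submitters' processing notes. The aligner, counter, annotation and strandedness were not given in the sources used here. Columns were matched by library name and groups taken from the titles.

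From these counts, filterByExpr kept 18804 of 35673 genes, TMM factors were computed, and Cationorm was tested against Control with glmQLFit and glmQLFTest of edgeR 4.0.16 in R 4.3.3, with no covariate, Benjamini-Hochberg adjustment over all genes tested and a threshold of 0.05. Standard errors came from the fold change and the F statistic. Deviations and spreads used log2 CPM with a prior count of 2. A count of 0 allows up to 0.0750 to 0.0952 CPM (3 counts, counting error only). Exon lengths and overlaps came from GENCODE M21 (GRCm38) by symbol.

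The members and lists were chosen with earlier results of these data known. Values in every library are given for 20 fixed members and for any other with an unadjusted p under 0.05, groups that did not overlap or 1 of the 5 largest changes. From other lists, the gene with the smallest p and the highest level per kb were named, and other genes were singled out after their values were seen. As alternatives, size factors of DESeq2 or upper-quartile scaling replaced TMM, and other fits used no filter, a filter of at least 1 CPM in 3 libraries, DESeq2 1.42.0, limma-voom (limma 3.58.1), a replicate block, 3 marker lists as covariates and each library left out. The edgeR step was tested on simulated counts.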

Additional observations from a re-analysis of the deposited data

How the results depend on the processing

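With size factors of DESeq2, upper-quartile scaling, no filter, the stricter filter (28 members tested), DESeq2, limma-voom, the replicate block and the skeletal muscle covariate, 0 members were called and every member tested in both kept the sign of its log2 fold change. In these fits the median ran from 0.10 to 0.15. DESeq2 called 64 of all genes. No pairing by replicate number was seen: deviations of same-numbered libraries correlated at -0.178, -0.306 and -0.163, and none correlated best with its own number. With 3 libraries in each group this check cannot settle whether the numbers pair the samples. With the replicate block the median was 0.15 and 0 members were called, with a smallest adjusted p of 0.699 (edgeR).

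With the iris and pigment covariate, the median was -0.0188 and 15 members changed sign: Fosl2 (0.23), Jun (-0.22), Egr1 (-0.98), Egr3 (-0.11), Ier2 (-0.11), Ier5 (0.12), Dusp2 (-0.0346), Dusp5 (-0.0401), Dusp6 (-0.0188), Zfp36l1 (-0.18), Btg1 (0.0663), Klf2 (-0.0670), Ccn1 (-0.11), Gadd45b (0.34) and Maff (0.33). With the retina covariate it was -0.0560 and 8 changed sign: Fos (-0.0560), Fosl2 (0.0293), Jun (-0.0644), Egr1 (-0.21), Atf3 (-0.11), Ier2 (-0.14), Zfp36l1 (-0.12) and Klf2 (-0.12). The cause was not tested. No member was called in either fit.

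Leaving out 1 library at a time gave 0 to 1 members called, the 1 being Fosb without Cationorm 3. Their median was 0.07 at the lowest, without Cationorm 2, and 0.17 at the highest, without Control 3, and the median within-group SD of the members was 0.17 to 0.23 on the log2 scale. The log2 fold change crossed 0 for 10 members, with ranges of -0.0863 to 0.0475 for Fosl2, -0.20 to 0.0584 for Junb, -0.00491 to 0.29 for Ier2, -0.17 to 0.0281 for Ier5, -0.19 to 0.14 for Dusp1, -0.0151 to 0.14 for Zfp36l1, -0.0884 to 0.0555 for Btg2, -0.0148 to 0.12 for Klf6, -0.14 to 0.00300 for Myc and -0.22 to 0.00442 for Maff. Depth limits Fosl1, Egr2, Egr3 and Dusp2, at 4 to 30 counts per library.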
